A study of Mus musculus with 2 samples.

Results

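Inducible heat shock genes and immediate early genes were examined in single leukemia cells: Hspa1a, Hspa1b, Dnajb1 and Hsph1 on one side, and Fos, Fosb, Jun, Junb, Egr1 and Ier2 on the other. These are 10 of the 31053 genes in the files, found there by symbol, and all 10 were detected in both libraries. They had been picked with the difference between the libraries in view, chiefly the low levels of Hspa1a, Hspa1b and Fosb in the Usp18+/Δ-labelled library, so that difference is described here and was not tested.

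Cells were GFP+ Lin- c-Kit+ splenocytes sorted from mice transplanted with AE9a leukemia, an acute myeloid leukemia made by a retrovirus that carries a truncated AML1-ETO fusion together with GFP. The leukemia cells of both groups were Usp18+/f and carried UBCER-Cre, a Cre that becomes active with tamoxifen, and sick recipients received either oil (Usp18+/f) or tamoxifen (Usp18+/Δ). The sort took place on day 3 counted from the first injection, each pool came from 3 mice, and 8000 cells were targeted in each, which gave 1 library each. The recipients of the Usp18+/f-labelled library never received tamoxifen, so the deletion, the drug, and the sorting and capture of each pool cannot be told apart.

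After filtering, 6546 and 7073 cells remained in the Usp18+/f-labelled and Usp18+/Δ-labelled libraries, with 58068183 and 59503327 UMIs (unique molecular identifiers, each standing for 1 captured transcript). Median depth was 8575.5 and 8023 UMIs per cell, and median mitochondrial UMIs were 6.32% and 6.44%. Usp18 mRNA went against the label: it stood at 5.68 CPM (a gene's share of the library's UMIs, scaled to 1000000) in the Usp18+/f-labelled library and at 24.1 CPM in the Usp18+/Δ-labelled library. Usp18 is itself on the interferon-stimulated list used below, which stood higher in that library (median log2 ratio 1.37, 23 of 23 genes above 0). The labelled deletion is heterozygous. What lies behind the Usp18 level was not tested. Kit, a marker of the sort, was present at 96.8 and 102 CPM. Of markers not used in the sort, Ptprc, the pan-leukocyte antigen CD45, was near 0 at 0.155 and 0.235 CPM, and the myeloid enzyme gene Mpo had 1 and 0 UMIs. Runx1t1, the gene of ETO, was present with a mean of at least 5 CPM. It was higher in the Usp18+/Δ-labelled library, with a log2 ratio of 0.51. Summed erythroid markers were at 4014 and 4185 CPM and mast or basophil markers at 1073 and 1104 CPM, whose members moved apart (Mcpt1 at a log2 ratio of -1.14, Cpa3 at 0.92), whereas the T cell, B cell and endothelial lists each summed to under 1 CPM. Neutrophil markers summed to 0.034 and 22.5 CPM. With 1 library per group there is no replicate, and every 95% interval below covers counting error only, not the variation between mice or captures.

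Heat shock genes encode chaperones that keep damaged proteins from clumping and help them refold. The transcription factor HSF1, which binds inverted repeats of the letters GAA named heat shock elements, switches on the inducible members, and Hspa1a and Hspa1b, which encode nearly the same HSP70 protein, are its textbook targets. DNAJB1 is the HSP40 co-chaperone that delivers clients to HSP70, and HSPH1 (HSP110) lets HSP70 release ADP. Immediate early genes answer growth factors and stress within minutes and need no new protein for it. Serum response factor with its ternary complex partners, driven by MAP kinases, is their main activator. FOS and FOSB pair with JUN and JUNB to form the AP-1 transcription factor, EGR1 is a zinc finger transcription factor, and IER2 is a short nuclear protein.

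Hspa1a and Hspa1b are neighbours on chromosome 17, and their start regions are shown because both genes had the lowest ratios between the libraries of all genes whose mean reached 20 CPM. Hspa1a lies at chr17:34969190-34972156 and Hspa1b at chr17:34956436-34959238 (mm10, minus strand), each with 1 exon, and 9951 bases separate them. The windows hold 250 bases before and 50 bases after the transcript start from RefSeq on GRCm38.p6, the same build as mm10. They are chr17:34972107-34972406 for Hspa1a, chr17:34959189-34959488 for Hspa1b, chr5:149636287-149636586 for Hsph1 (minus strand) and chr12:85473640-85473939 for Fos (plus strand). Hsph1 is shown as a heat shock gene whose level barely differed between the libraries, and Fos as an immediate early gene. Capitals mark matches to GAANNTTC or TTCNNGAA, each its own reverse complement, and in Fos the TATAAA box.
Hspa1a: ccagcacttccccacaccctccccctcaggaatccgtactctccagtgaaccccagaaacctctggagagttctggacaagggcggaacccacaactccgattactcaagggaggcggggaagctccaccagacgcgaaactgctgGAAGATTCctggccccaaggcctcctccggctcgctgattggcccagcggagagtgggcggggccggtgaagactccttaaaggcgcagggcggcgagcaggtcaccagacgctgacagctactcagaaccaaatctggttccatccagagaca
Hspa1b: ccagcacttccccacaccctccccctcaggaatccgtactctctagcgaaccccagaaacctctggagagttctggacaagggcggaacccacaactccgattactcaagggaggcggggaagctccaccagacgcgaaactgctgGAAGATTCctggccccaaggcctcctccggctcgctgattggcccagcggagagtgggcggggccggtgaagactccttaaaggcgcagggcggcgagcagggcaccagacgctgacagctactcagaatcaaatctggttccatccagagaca
Hsph1: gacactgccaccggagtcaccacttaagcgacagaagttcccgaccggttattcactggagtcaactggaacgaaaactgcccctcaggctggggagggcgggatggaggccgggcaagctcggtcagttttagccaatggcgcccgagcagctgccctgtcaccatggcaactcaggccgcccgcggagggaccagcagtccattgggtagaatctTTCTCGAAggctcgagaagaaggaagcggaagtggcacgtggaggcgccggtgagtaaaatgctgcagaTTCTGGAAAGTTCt
Fos: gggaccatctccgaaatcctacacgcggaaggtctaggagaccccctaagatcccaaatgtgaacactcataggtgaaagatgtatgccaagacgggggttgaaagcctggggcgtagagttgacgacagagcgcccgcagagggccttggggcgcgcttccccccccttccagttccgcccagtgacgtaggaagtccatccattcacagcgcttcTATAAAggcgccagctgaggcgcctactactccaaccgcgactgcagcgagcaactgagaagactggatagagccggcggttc

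The Hspa1a and Hspa1b windows differed at 4 of 300 positions, C44T, T47C, T249G and C276T, counted from 1 at the 5′ end with the Hspa1a base first. Both hold GAAGATTC, starting 104 bases before the transcript start, and a CCAAT box on the opposite strand. Over the 1926 and 1929 bases of the coding part they were 99.5% identical, but over the last 300 bases of the transcript, where 3′ libraries read, only 52.4%. UMIs of these 2 genes can therefore be assigned separately near the 3′ end, and uncertainly where a read falls in the coding part. In the Hsph1 window 3 matches were found, of which TTCTGGAA and GAAAGTTC overlap. Jun also held 1 match, GAATCTTC, starting 128 bases before its start, whereas the windows of Dnajb1, Fos, Fosb and Junb held none. Of all 32851 windows of this length, 15.1% held at least 1 such match and 13.6% held TATAAA on either strand, so these matches describe the windows and are not evidence of binding.

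The HSP70 genes differed far more between the libraries than the other 8 genes. Hspa1a had 2778 UMIs in the Usp18+/f-labelled library, or 47.8 CPM (46.1 to 49.7), and 380 UMIs in the Usp18+/Δ-labelled library, or 6.39 CPM (5.76 to 7.06). Hspa1b had 9738 UMIs, or 168 CPM, against 2285 UMIs, or 38.4 CPM. Hspa1a was thus 7.49-fold and Hspa1b 4.37-fold lower in the Usp18+/Δ-labelled library, with log2 ratios of -2.91 (-3.06 to -2.75) and -2.13 (-2.19 to -2.06). Without the 1% of cells richest in it, which held 15.8% and 49.2% of its UMIs, the log2 ratio of Hspa1a was -3.63. Of 5984 genes whose mean reached 20 CPM they ranked lowest and next to lowest. The 2 genes did not differ in step: Hspa1a made up 22.2% of their joint UMIs (21.5 to 22.9) in the Usp18+/f-labelled library and 14.3% (13.0 to 15.6) in the other. Summed, they stood at 216 and 44.8 CPM, a log2 ratio of -2.27 (-2.33 to -2.21).

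Their partner chaperones were close to level between the libraries. Dnajb1 had 63.9 CPM in the Usp18+/f-labelled library and 56.0 CPM in the Usp18+/Δ-labelled library, a log2 ratio of -0.19 (-0.26 to -0.12). Hsph1 had 38.9 and 36.5 CPM, a log2 ratio of -0.089 (-0.17 to -0.0030). The log2 ratio of all 4 heat shock genes summed, -1.21 (-1.25 to -1.17), therefore came almost wholly from Hspa1a and Hspa1b, and that of Dnajb1 plus Hsph1 alone was -0.15 (-0.20 to -0.098).

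**Figure D1:**
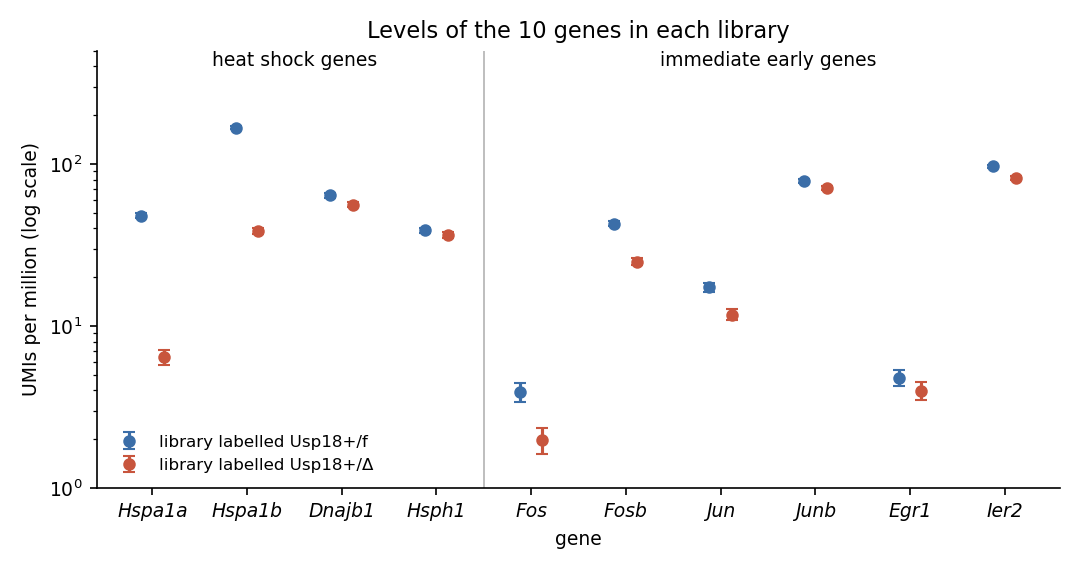
Level of each gene in CPM (log axis) in the Usp18+/f-labelled library (blue) and the Usp18+/Δ-labelled library (red), 1 library per group. Bars are exact Poisson 95% intervals and cover counting error only. All 10 genes sit lower in the Usp18+/Δ-labelled library, with the widest gaps for Hspa1a and Hspa1b.

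The immediate early genes were all lower in the Usp18+/Δ-labelled library, by smaller and uneven amounts. Fos, a scarce transcript in these cells, had 226 UMIs (3.89 CPM) against 117 UMIs (1.97 CPM), a log2 ratio of -0.99 (-1.32 to -0.66). Fosb, its close relative, had 42.8 against 24.9 CPM, a log2 ratio of -0.78 (-0.88 to -0.69). Jun had 17.3 against 11.7 CPM, a log2 ratio of -0.56 (-0.70 to -0.42), so that the AP-1 genes Fos, Fosb and Jun were the most unequal. Junb had 78.0 against 71.3 CPM, a log2 ratio of -0.13 (-0.19 to -0.070). Ier2 had 96.4 against 81.8 CPM, a log2 ratio of -0.24 (-0.29 to -0.18). Egr1 had 277 UMIs (4.77 CPM) against 236 UMIs (3.97 CPM), a log2 ratio of -0.27 (-0.52 to -0.011). Junb, Ier2 and Egr1 thus differed by under 1.5-fold. The summed level of the 6 genes was 243 CPM in the Usp18+/f-labelled library and 196 CPM in the other, a log2 ratio of -0.31 (-0.35 to -0.28). In cells of at most 5% mitochondrial UMIs that ratio was 0.13, as described further on.

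In all, 10 of 10 genes were lower in the Usp18+/Δ-labelled library, and 4 of 10, Hspa1a, Hspa1b, Fos and Fosb, were lower by at least 1.5-fold. In cells of at most 5% mitochondrial UMIs 6 of 10 were lower, and 2 of 10, Hspa1a and Hspa1b, by at least 1.5-fold. The matching shares of all genes were not computed in those cells, and the shares that follow are those of all kept cells. Of the 7 with a mean of at least 20 CPM, 3 were at least 1.5-fold lower, a size reached by 0.15% of all 5984 genes at that level, while 0.702% were at least 1.5-fold higher and 49.8% were lower by any amount. At a mean of at least 5 CPM, 3 of 8 were at least 1.5-fold lower, against 0.18% of 8879 genes, and 1.17% were at least 1.5-fold higher. Since the genes had been picked on this contrast, nothing is read from these shares. Fosb ranked number 4 from the lowest of 5984, Ier2 122, Dnajb1 255, Junb 589 and Hsph1 1034. The median log2 ratio over all those genes was 0.00059, and 95.5% lay within 0.25 of 0.

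The medians of other genes of the same pathways were close to level between the libraries. Of 23 other heat-inducible genes, 17 had a mean of at least 5 CPM, with a median log2 ratio of -0.011 and a range of -0.17 to 0.14, and 0 passed 1.5-fold in either direction. The lowest were the co-chaperone gene Dnaja4 (69.0 against 61.4 CPM, log2 ratio -0.17), the HSP90 activator Ahsa1 (-0.10) and Cacybp (-0.094), and among the highest were Dnajb6 (0.065) and Hspd1 (0.14), which encodes the mitochondrial chaperonin. Among 22 constitutive chaperones at that level the median was 0.040 and 0 passed 1.5-fold. They ran from Hsbp1 (-0.13), St13 (-0.085) and Ptges3 (-0.082) to Hspa4 (0.12), Bag1 (0.13) and the mitochondrial HSP70 gene Hspa9 (0.20). The 20 genes of the unfolded protein response of the endoplasmic reticulum had a median of -0.011 and a wider range, -0.44 to 0.49, again with 0 past 1.5-fold. Of those with at least 20 CPM, Sdf2l1 (-0.15), Edem1 (-0.12) and Creld2 (-0.10) were lowest, and the lectin chaperone genes Calr (0.052) and Canx (0.083), with Ddit3 (0.082) between them, were highest.

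**Figure D2:**
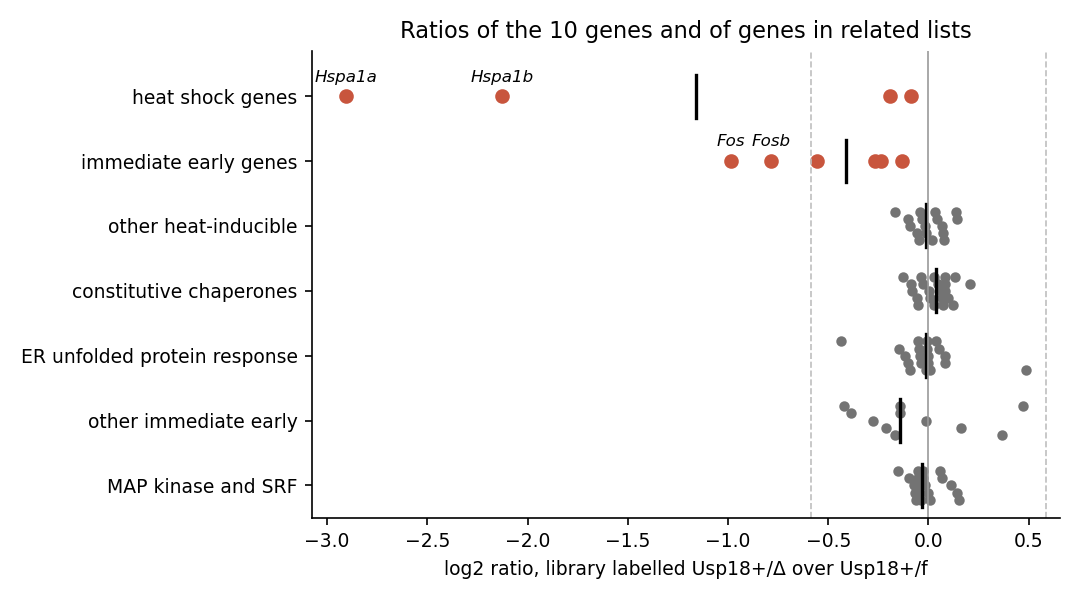
Log2 ratio of the Usp18+/Δ-labelled library over the Usp18+/f-labelled library for the 10 genes (red) and for the genes of 5 related lists with a mean of at least 5 CPM (grey), 1 point per gene. Black bars are medians, dashed lines mark 1.5-fold, and vertical scatter within a list has no meaning. Hspa1a, Hspa1b, Fos and Fosb lie beyond the lower 1.5-fold line, and 0 genes of the other lists lie beyond either line.

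Other immediate early genes were mixed. Of 27 listed, 11 had a mean of at least 5 CPM, with a median log2 ratio of -0.14, and 8 were lower and 3 higher in the Usp18+/Δ-labelled library, none past 1.5-fold. Jund, the JUN relative least dependent on stimulation, had 252 against 192 CPM (log2 ratio -0.39), Klf6 had 69.6 against 57.4 CPM (-0.28) and Myc 146 against 126 CPM (-0.21). In the other direction stood the antiproliferative genes Btg2 (30.4 against 42.2 CPM, 0.47) and Btg1 (23.0 against 29.6 CPM, 0.37), and Nfkbia (31.2 against 34.9 CPM, 0.16), which encodes the NF-κB inhibitor IκBα. The MAP kinases and serum response factors that act upstream had a median of -0.032 over 20 genes and none past 1.5-fold. Of the 15 with a mean of at least 20 CPM, Rps6ka3 (-0.099), which encodes a ribosomal S6 kinase, and Mapk3 (-0.065) were among the lowest, and Mapk14 (0.057), Map2k4 (0.067) and Rps6ka1 (0.14) highest. Only 2 of 11 feedback inhibitors of ERK reached 5 CPM, Spred1 (0.27) and Spred2 (-0.021).

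The difference in Hspa1a and Hspa1b was spread over many cells. To compare cells at equal depth, 3000 UMIs were drawn from each cell, which left 6090 and 6723 cells and dropped 456 and 350 shallower ones. Hspa1b was then found in 34.1% (32.9 to 35.3) of cells of the Usp18+/f-labelled library and 9.40% (8.71 to 10.1) of the other, and without the draw in 55.6% and 19.3%. Hspa1a was found in 11.3% and 1.41% of cells, and in 20.9% and 3.73% without the draw. Cells with at least 3 UMIs of the pair, in contrast to the 60.9% and 89.7% with none, made up 412 cells (6.77%) and 31 cells (0.461%). No cell of the Usp18+/Δ-labelled library reached 6 UMIs at this depth, and 37 cells of the other did. Dnajb1 was in 18.0% and 14.9% of cells and Hsph1 in 10.5% and 9.28%. The cell-to-cell variance over the mean was 1.79 and 1.41 for the HSP70 pair and 1.0 and 1.02 for Dnajb1, where a value of 1 is that of random sampling. No cell type known to lack these genes was present, so the share that free RNA alone would give was not measured.

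Of the immediate early genes, Fosb had the widest gap in the share of positive cells in percentage points. It was found in 671 of 6090 cells against 415 of 6723 (6.17%, 5.61 to 6.77) at equal depth, and 23.2% against 13.5% without the draw. In proportion the gap of Fos was wider. Ier2 was in 25.2% and 21.8% of cells, Junb in 20.6% and 19.8%, Jun in 4.65% and 2.96%, Egr1 in 1.41% and 1.15%, and Fos in 1.13% and 0.506%. For Junb these shares have overlapping intervals (19.6 to 21.7 and 18.8 to 20.7), as they have for Egr1 (1.13 to 1.74 and 0.905 to 1.43). Without the draw Fos was found in 2.37% and 1.06% of cells, and 1 cell of the Ahnak-led cluster described below held 16 of the 117 Fos UMIs of the Usp18+/Δ-labelled library. Without that cell the log2 ratio of Fos was -1.20.

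**Figure D3:**
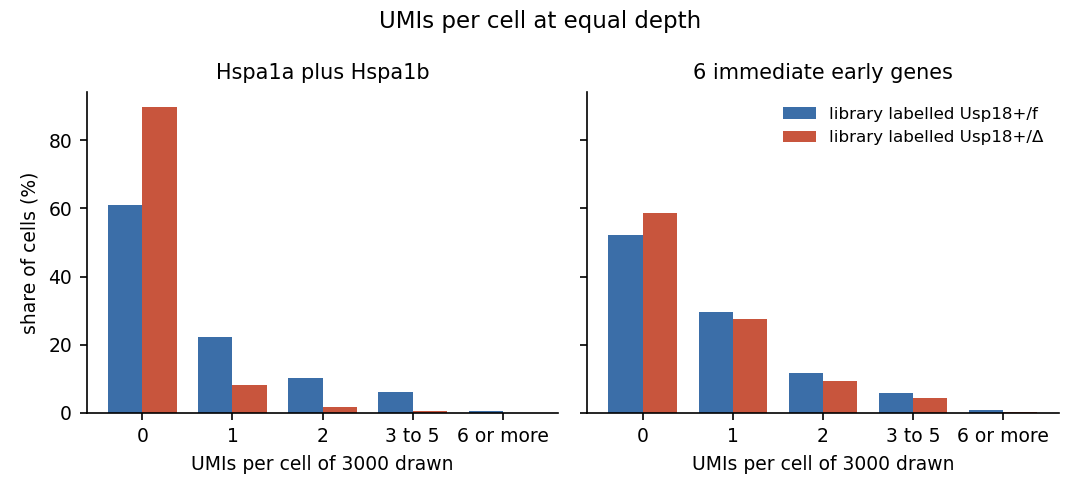
Share of cells (%) by the number of UMIs of Hspa1a plus Hspa1b (left) and of the 6 immediate early genes (right) among 3000 UMIs drawn per cell, in the Usp18+/f-labelled library (blue, 6090 cells) and the Usp18+/Δ-labelled library (red, 6723 cells). Cells with no HSP70 UMI make up 60.9% of the first and 89.7% of the second, whereas for the immediate early genes the shares are 52.2% and 58.5%.

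Whether both groups of genes were raised in the same cells was then asked within each library. A cell was called heat-shock-high or immediate-early-high if it held more than 3 UMIs of the 4 or the 6 genes at equal depth, the 95th percentile over both libraries. Such classes are ranges of a count, not cell types. Heat-shock-high cells numbered 282 (4.63%, 4.12 to 5.19) in the Usp18+/f-labelled library and 18 (0.268%, 0.159 to 0.423) in the Usp18+/Δ-labelled library. Immediate-early-high cells numbered 180 (2.96%, 2.54 to 3.41) and 106 (1.58%, 1.29 to 1.90). Another draw of 3000 UMIs gave 161 and 116 such cells, so the size of that difference moved with the draw, and 273 and 24 heat-shock-high cells.

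In the Usp18+/f-labelled library the classes overlapped more than their sizes alone would give, although most high cells of one class were not in the other. Of 282 heat-shock-high cells, 20 were also immediate-early-high (7.09%, 4.39 to 10.7), against 160 of 5808 other cells (2.75%, 2.35 to 3.21), a 2.57-fold ratio with a log2 of 1.36 (0.71 to 1.997). The size depended on the threshold: the log2 ratio was 0.95 at the 90th percentile and 0.12 for cells with at least 1 UMI. The 20 cells are 7.09% of the heat-shock-high class and 20 of 180 of the immediate-early-high class. In the Usp18+/Δ-labelled library 0 of 18 heat-shock-high cells were immediate-early-high, against 106 of 6705 others (1.58%). The interval for 0 of 18 reaches 18.5%, and the value depended on the draw. With the other draw of 3000 UMIs it was 1 of 24. At 5000 UMIs per cell it was 3 of 27 against 1.89% of other cells, a log2 ratio of 2.56 (1.01 to 3.92). Without a draw, where cells differ in depth, it was 4 of 40 against 1.98%, a log2 ratio of 2.34 (0.98 to 3.57). With larger classes at 3000 UMIs the shares lay closer: 6 of 98 against 4.59% at the 90th percentile, a log2 ratio of 0.42 (-0.70 to 1.48), and a log2 ratio of 0.011 (-0.078 to 0.099) for cells with at least 1 UMI. Of the 31 cells high in the HSP70 pair alone 0 were immediate-early-high. Whether the libraries differ in this overlap was not tested. Heat-shock-high cells of the Usp18+/f-labelled library were shallower than the others, with medians of 7914 and 8921 UMIs, and median mitochondrial UMIs were 6.64% and 6.40%. Both sums were higher in shallower cells of that library: from the lowest to the highest tertile of total UMIs the immediate early sum stood at 341, 277 and 196 CPM and the HSP70 pair at 268, 224 and 195 CPM. Ratios within these tertiles are given further on.

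All 6 immediate early genes had higher levels in heat-shock-high cells of the Usp18+/f-labelled library. Fos was at 15.4 CPM in them and 4.13 CPM in other cells (log2 ratio 1.89, 0.92 to 2.76, from 13 UMIs in the high cells), and Egr1 at 15.4 and 5.57 CPM (1.46, 0.50 to 2.31, also 13 UMIs). Fosb was at 89.8 and 43.8 CPM (1.04, 0.68 to 1.38) and Jun at 36.6 and 18.6 CPM (0.98, 0.40 to 1.51). Junb followed with 131 and 83.7 CPM (0.65, 0.36 to 0.93) and Ier2 with 126 and 100.2 CPM (0.34, 0.040 to 0.62). The cells share 1 library and are no replicates of a condition.

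Graded by the HSP70 pair alone, the summed immediate early level was higher with each further bin. The sum of the partner chaperones stayed within overlapping intervals, although Dnajb1 taken singly did not in the Usp18+/f-labelled library. In the Usp18+/f-labelled library the immediate early level was 243 CPM (233 to 252) in the 3707 cells with 0 UMIs of Hspa1a plus Hspa1b. It was 253 CPM (238 to 269) with 1, 324 CPM with 2 and 389 CPM (354 to 428) with 3 to 5. In the 37 cells with 6 or more it was 441 CPM (327 to 584). Intervals overlapped between 0 and 1 UMIs, and between 3 to 5 and 6 or more. Over the same bins the summed level of Dnajb1 and Hsph1 was 101, 110, 104, 113 (94.1 to 134) and 108 CPM (55.9 to 189). Singly they moved apart. From 0 UMIs to 3 to 5, Dnajb1 went from 62.9 CPM (58.4 to 67.8) to 84.4 CPM (68.3 to 103). Hsph1 went from 38.2 CPM (34.7 to 42.0) to 28.4 CPM (19.5 to 40.2). With 6 or more they stood at 63.1 CPM (25.4 to 130) and 45.0 CPM (14.6 to 105). The other immediate early genes went from 878 CPM in cells with 0 UMIs of the pair to 1300 CPM with 3 to 5, whereas other heat-inducible genes were at 7828 and 7896 CPM and constitutive chaperones at 6648 and 6508 CPM in those bins. In the Usp18+/Δ-labelled library the immediate early level was 207 CPM (201 to 214) in 6029 cells with 0 UMIs and 219 CPM (197 to 243) with 1. It was 257 CPM (206 to 317) with 2, and 344 CPM (235 to 486) in 31 cells with 3 to 5. All neighbouring bins had overlapping intervals there. With 0 and with 3 to 5 UMIs, Dnajb1 stood at 54.2 and 53.8 CPM (17.5 to 125) and Hsph1 at 33.1 and 43.0 CPM (11.7 to 110). G2/M genes moved over the same bins of the Usp18+/f-labelled library, from 3607 CPM with 0 UMIs of the pair to 2728 CPM with 3 to 5, and interferon-stimulated genes from 615 to 716 CPM. In the Usp18+/Δ-labelled library they went from 3101 to 1656 CPM and from 1525 to 2333 CPM over those bins. Their part in the relation was not tested beyond the tertiles given below. Over single cells these relations were weak. Pearson's r of log1p UMIs was 0.096 in the Usp18+/f-labelled library and 0.026 in the other for the HSP70 pair against the immediate early sum, and 0.018 and 0.00079 for the pair against Dnajb1 plus Hsph1. For Fos plus Fosb against Jun plus Junb it was 0.13 and 0.12. Cells of 1 library share its depth and handling, so no test is attached.

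**Figure D4:**
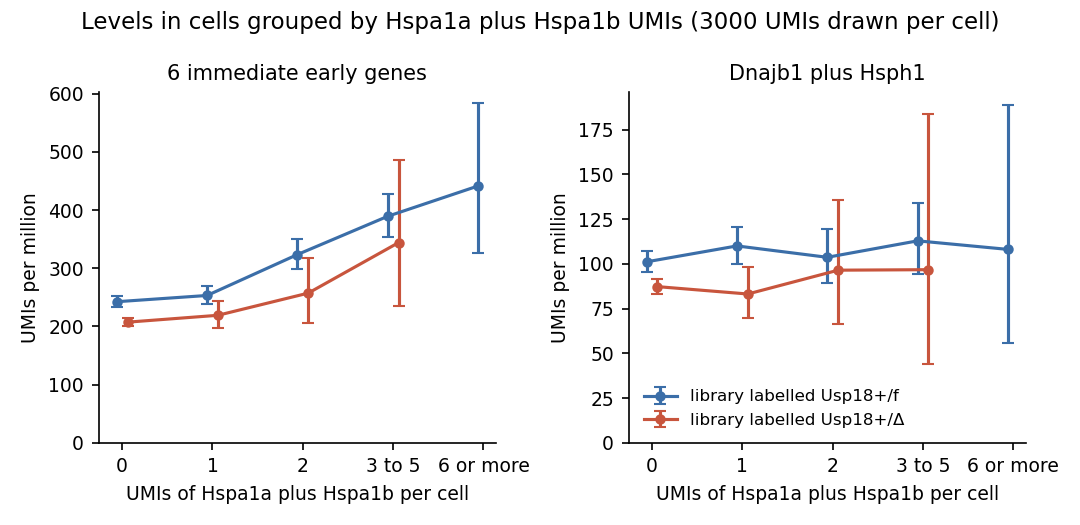
Summed level of the 6 immediate early genes (left) and of Dnajb1 plus Hsph1 (right), in CPM, in cells grouped by their UMIs of Hspa1a plus Hspa1b among 3000 drawn, for the Usp18+/f-labelled library (blue) and the Usp18+/Δ-labelled library (red). Bars are exact Poisson 95% intervals, and groups under 20 cells are left out. The left curves climb from 243 to 441 and from 207 to 344, while the right curves stay between 83.2 and 113.

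The overlap in the Usp18+/f-labelled library was examined within cell states. In 5 of 5 clusters with at least 20 heat-shock-high cells, the immediate early level was higher in those cells than in the rest. The ratios ran from 1.16-fold to 1.72-fold, and no intervals were computed for them. Clusters 0 and 4 stood at 1.72-fold and 1.58-fold, from 109 and 63 immediate early UMIs in the high cells. Clusters 1, 2 and 3 had lower ratios, from only 47, 18 and 45 such UMIs. Whether these lower ratios differ from 1 was not tested. Split by tertiles of total UMIs, the log2 ratio of immediate-early-high shares was 1.08 and 1.49 in the lowest and middle ones and 0.080 (-2.46 to 2.56) in the highest, where only 1 cell was high in both. In the tertiles of mitochondrial share it was 1.20, 0.96 and 1.73, and in those of G2/M UMIs it ran from 1.07 to 1.70. It was below 0 in the tertile with the most S phase UMIs, at -0.85 (-3.38 to 1.61), again from 1 cell. In the 643 cells of at most 5% mitochondrial UMIs it was -0.13 (-2.67 to 2.23), from 1 of 26 cells against 26 of 617.

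The low HSP70 level of the Usp18+/Δ-labelled library was seen in nearly all cell states. Cells of both libraries were clustered together into 11 clusters without the stress, interferon and sex genes, and the clusters are given by their leading genes and not named as cell types. The log2 ratio of Hspa1a plus Hspa1b was below 0 in 10 of 11. In the 7 clusters with at least 20 of their UMIs in each library it ran from -3.95 to -2.03. The value of -2.03 (-2.16 to -1.91) was that of cluster 0, led by the uracil-DNA glycosylase gene Ung and, among others, the replication gene Cdc6. The value of -3.95 (-4.41 to -3.51) was that of cluster 5, led by Mrgprb2 and the mast cell protease genes Cpa3 and Tpsb2, where 249.8 CPM in 176 cells stood against 16.2 CPM in 758 cells. In cluster 8, led by Ahnak, Tpsab1 and Klf2, Hspa1a had 110 UMIs in 178 cells of the Usp18+/f-labelled library and 0 UMIs in 73 cells of the other. The small clusters 9 and 10, with 6 and 9 cells in the Usp18+/f-labelled library, stood at -1.38 and -2.88. The exception was cluster 7, shallow barcodes with median mitochondrial UMIs of 0.887% and 0.915% led by Rpgrip1 and AY036118, with 32 and 6 UMIs of the pair and a log2 ratio of 0.59 (-0.96 to 1.87).

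Immediate early genes varied more between clusters than between libraries. Their summed level was highest in cluster 8, at 661 and 535 CPM, and 32 of 153 of its cells at equal depth (20.9%) were immediate-early-high in the Usp18+/f-labelled library and 5 of 40 (12.5%) in the other. It was lowest in cluster 6, led by the mitotic genes Ccnb1, Ube2c and Cdc20, at 150 and 126 CPM. The log2 ratio between libraries was below 0 in 10 of 11 clusters, and in the 9 with at least 20 UMIs in each library it ran from -0.46 to -0.25. The exception was cluster 9, led by the interferon-stimulated genes Mx1 and Ifit1, with 6 and 75 cells and a log2 ratio of 0.20 (-0.63 to 1.14). Fosb, taken alone, was lower in each of the 7 clusters with at least 20 of its UMIs in each library, by log2 ratios from -1.30 to -0.37. Below that count, cluster 10 stood at 2.67 (0.067 to 8.02), from 1 and 27 UMIs. Cluster 9 stood at 0.49 (-2.25 to 5.90), from 1 and 13 UMIs.

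**Figure D5:**
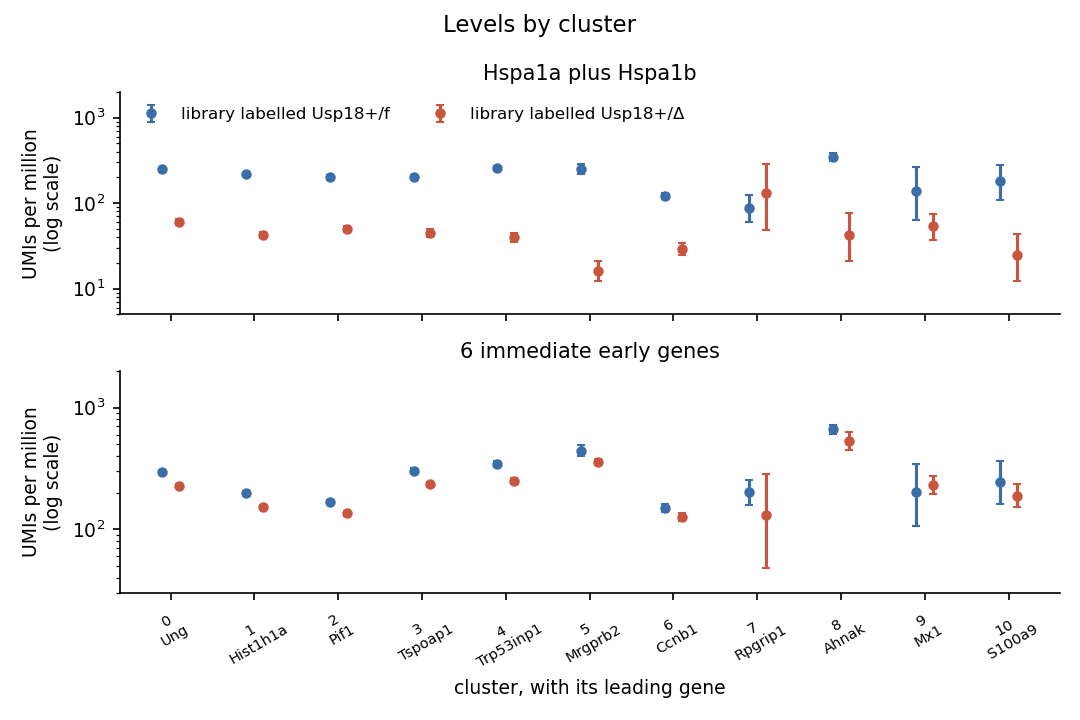
Summed level of Hspa1a plus Hspa1b (top) and of the 6 immediate early genes (bottom), in CPM on log axes, in each of 11 clusters, for the Usp18+/f-labelled library (blue) and the Usp18+/Δ-labelled library (red). Bars are exact Poisson 95% intervals. The HSP70 pair lies lower in the Usp18+/Δ-labelled library in 10 of 11 clusters, and the immediate early level is highest in cluster 8 in both libraries.

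Other cell properties moved between the libraries as well, and the differences were therefore recomputed within tertiles of the cells. Interferon-stimulated genes stood higher (median log2 ratio 1.37, 23 of 23 above 0) and G2/M genes lower (median -0.16, 25 of 25 below 0) with the Usp18+/Δ label. In tertiles of interferon-stimulated UMIs the log2 ratio of the HSP70 pair was -2.23, -2.26 and -2.47 from the lowest to the highest, and that of the immediate early sum -0.45, -0.40 and -0.37. In tertiles of G2/M UMIs the pair stood at -2.41, -2.30 and -2.13 and the immediate early sum at -0.35, -0.39 and -0.37. The immediate early level itself was lower in cells with more G2/M UMIs, at 319 CPM in the lowest and 176 CPM in the highest tertile of the Usp18+/f-labelled library, and 251 and 136 CPM in those of the other. In tertiles of total UMIs the pair stood at -2.86, -2.30 and -2.04. Within each tertile of these properties both sums were lower in the Usp18+/Δ-labelled library.

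The immediate early difference varied with the mitochondrial share of the cells. In cells above 5% mitochondrial UMIs, 5533 and 6341 cells, the summed immediate early level was 243 CPM in the Usp18+/f-labelled library and 190 CPM in the other, a log2 ratio of -0.36 (-0.40 to -0.32). In the 1013 and 732 cells at or below 5% it was 242 and 264 CPM, a log2 ratio of 0.13 (0.018 to 0.23). The level of the Usp18+/f-labelled library was thus nearly the same on both sides, and that of the Usp18+/Δ-labelled library was not. Of the cells at or below 5%, 309 and 42 belonged to cluster 7. The part of mitochondrial share in the difference was not tested. Below that line Junb had 75.0 and 102 CPM (0.44, 0.25 to 0.62) and Egr1 4.97 and 10.1 CPM (1.02, 0.35 to 1.72), both higher in the Usp18+/Δ-labelled library. Fosb remained lower there, with 44.9 and 34.9 CPM (-0.36, -0.65 to -0.082). Hspa1a plus Hspa1b had 190 and 35.1 CPM at or below 5% (-2.43, -2.68 to -2.20) and 219 and 45.6 CPM above it (-2.26, -2.32 to -2.20).

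Genes that varied from cell to cell most like each sum were sought in the same 5984 genes, by the lower of both libraries' Pearson correlations over cells. For the immediate early sum these were Jund (0.22 in the Usp18+/f-labelled library and 0.15 in the other), Srgn, which encodes the granule proteoglycan serglycin (0.12 and 0.12), the long non-coding RNA Neat1 (0.15 and 0.11), the intermediate filament gene Vim (0.16 and 0.11) and Txnip (0.10 and 0.11). For the heat shock sum the highest values were weak in both libraries, from 0.033 to 0.041 for the lower of both, in Atad2, Gm26917, Ptpra, Hnrnpdl and Phf5a, and none of them is read as a relation. These values describe 6090 and 6723 cells that share 1 library each.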

How the data were processed

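Single cells were captured with the 10x Genomics 3′ V3 kit, and the files hold UMI counts per gene and barcode, not normalized, which the authors deposited after processing with Cell Ranger 3.0.2 on mm10. The deposited files hold 7281 and 7833 barcodes with 63690481 and 65146263 UMIs in the Usp18+/f-labelled and Usp18+/Δ-labelled libraries. Kept were barcodes of 500 or more genes whose mitochondrial UMIs did not exceed 10% (6886 and 7406). Scrublet in scanpy 1.11.5 marked 0.0436% and 0.027% of barcodes at its automatic threshold, too few for a working call, so barcodes above the 95th percentile of its score were removed (340 and 333). Of the kept barcodes, 11 occurred in both libraries. Clustering used 2000 variable genes without the stress, interferon and sex lists, 30 principal components, 20 neighbours and Leiden resolution 0.8, with no batch correction.

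UMIs were summed per library and scaled to CPM. Levels have exact Poisson intervals, ratios exact conditional intervals, shares Clopper-Pearson intervals and their ratios score intervals, each at 95%, for counting error only. With 1 library per group no test was run. A count of 0 allows up to 3 UMIs, or 0.0517 and 0.0504 CPM. The functions were tested on simulated data: over 8879 genes with 200 changed, the sign was right for 100% of those changed and 95.1% of intervals held the true ratio. These counts were drawn as Poisson counts, the model that the intervals assume, so this checks the code alone. Genes uneven over cells, such as the HSP70 pair with a variance over mean of 1.79 and 1.41, were not simulated there. The genes, lists and thresholds were chosen with earlier results of these data known. Named genes were the 10 members, the 3 highest and 3 lowest ratios of each pathway list at a mean of at least 20 CPM, and the 5 most alike non-members per sum, while the genes Spred1, Spred2 and those leading clusters were named after their values were seen. Some genes that this rule names are not reported here. Gene positions are from GENCODE vM21 (31011 of 31053 identifiers matched) and promoter windows from RefSeq on GRCm38.p6, where 8 of the 10 genes had an entry. Alternatives varied the cell filter, doublet removal, averaging, scaling, cluster weighting, the thinning and the thresholds.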

Additional observations from a re-analysis of the deposited data

How the results depend on the processing

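No paired analysis was possible because the groups have 1 library each and no result rests on a test. A value is counted as moved when it left the counting interval of the reported one (for list medians, the median half-width of its genes' intervals; for counts, 1.5 times). Cells of at most 5% mitochondrial UMIs, 1013 and 732 cells, moved the most results. There the log2 ratio of the HSP70 pair was -2.43, and the immediate early sum turned to 0.13, with Fos at 0.23, Junb at 0.44, Egr1 at 1.02 and Ier2 at 0.050. The members at least 1.5-fold lower numbered 2 in place of 4, the log2 ratio of immediate-early-high shares was -0.19, and that within the Usp18+/f-labelled library between heat-shock-high and other cells was -0.13. List medians there were -0.17 for other heat-inducible genes, -0.17 for constitutive chaperones, -0.20 for the unfolded protein response, 0.28 for other immediate early genes and 0.90 for ERK feedback genes. All 309 and 42 barcodes of the Rpgrip1-led cluster fall below 5%, and leaving them out as well, chosen after seeing the data, gave -2.52 for the pair, 0.12 for the immediate early sum, 0.16, 0.40, 0.95 and 0.040 for Fos, Junb, Egr1 and Ier2, 2 members, -0.19 and -0.13 for the shares, and -0.16, -0.13, -0.17, 0.28 and 0.96 for the lists in the same order. The cause was not tested. No ratio of heat-shock-high shares could be formed there, since 0 of 569 cells of the Usp18+/Δ-labelled library were high.

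Averaging CPM per cell gave -2.37 for the pair, -1.30 for the heat shock sum, and medians of -0.013, -0.091 and 0.32 for constitutive chaperones, the unfolded protein response and ERK feedback. Without the 1% of cells richest in the pair it was -2.42. Equal cluster shares gave -0.36 for the immediate early sum. At a 2-fold limit 2 members passed. Thinning to 1500 UMIs gave -0.41 for immediate-early-high shares. Thresholds at the 90th percentile gave -2.90 and -0.55 for heat-shock-high and immediate-early-high shares, and at 1 UMI -0.84 and -0.21. Between heat-shock-high and other cells of the Usp18+/f-labelled library the log2 ratio was 2.46 at the 99th percentile and 0.12 at 1 UMI. Apart from the cells of at most 5% mitochondrial UMIs, every alternative kept the direction of the sums and of each of the 10 genes: 103 of 111 single-gene values were below 0 and the other 8 are those given above. The value of Fos without the 1% of cells richest in it, -4.51, bears on nothing, since in the Usp18+/Δ-labelled library only 1.06% of cells held a Fos UMI. Other scalings moved the median of all genes by -0.00059 and 0.012. No value could be given for ERK feedback at 20 CPM, where no gene of it remained. Depth limits Fos and Egr1, with at most 226 and 277 UMIs per library, and the class of 18 heat-shock-high cells in the Usp18+/Δ-labelled library, whose overlap with the immediate-early-high class was 0 at 3000 UMIs and 3 of 27 at 5000.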

Other observations

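Barcodes with more than 10% mitochondrial UMIs, left out of the values above, also had lower levels in the Usp18+/Δ-labelled library. In 290 and 404 such barcodes, Hspa1a plus Hspa1b stood at 247 and 51.2 CPM, a log2 ratio of -2.27 (-2.69 to -1.87). The immediate early sum stood at 261 and 178 CPM there, a log2 ratio of -0.56 (-0.82 to -0.29). In tertiles of the kept cells by mitochondrial share it was -0.071 (-0.13 to -0.011) in the lowest, -0.38 in the middle and -0.51 in the highest.

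Klf2, an immediate early gene below the 5 CPM limit of the lists, had 182 UMIs (3.13 CPM) in the Usp18+/f-labelled library and 46 UMIs (0.77 CPM) in the Usp18+/Δ-labelled library. It is also among the leading genes of cluster 8, which held 178 and 73 cells. It was named after its value was seen, and what part the share of that cluster has in it was not tested.

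In the Usp18+/f-labelled library alone, the gene whose counts were most correlated with the heat shock sum was not a chaperone but Jund, with a Pearson's r of 0.11 over 6090 cells. In the Usp18+/Δ-labelled library the same value was 0.012.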
